A study of Mus musculus with 12 samples.

Results

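MHC class I molecules consist of a polymorphic heavy chain and the light chain β2-microglobulin, and they display peptides on the cell surface to CD8 T cells or NK cell receptors. The peptides are pumped into the endoplasmic reticulum (ER) by the transporter TAP, trimmed by the aminopeptidase ERAP1 and loaded onto heavy chains with the help of tapasin, which bridges TAP and the heavy chain, or of the tapasin-related protein TAPBPR, which exchanges peptides. Plasmablasts (PBs) and plasma cells (PCs), the antibody-secreting cells of the B cell lineage, depend on the ER for folding their product, and the transcription factor Xbp1 controls a large part of that machinery.

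The genes described here are 10 of the 24189 genes listed in all RNA-seq libraries. They comprise the classical heavy chains *H2-K1* and *H2-D1*, the nonclassical heavy chains *H2-T23* and *H2-T24* of the T region, the light chain *B2m*, both TAP subunits *Tap1* and *Tap2*, tapasin (*Tapbp*), TAPBPR (*Tapbpl*) and *Erap1*. They were taken by name, with earlier results of these data known. *H2-T24* was chosen by its lower level in all 3 comparisons of mutant and control cells. Its values in these comparisons are a description and carry no test, and member counts are therefore given over the other 9 genes. *Tapbp* and *H2-T23* were also picked by the study from these libraries, so that their p-values are not those of genes chosen blind. All 10 genes passed the filter of at least 1 TPM (length-corrected transcript abundance, each library summing to the same total) in at least 2 libraries.

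The data comprise 10 RNA-seq libraries of C57BL/6 mice in 5 groups of 2 libraries and 2 lists of Mist1 peaks. PBs were grown from splenic B cells on a CD40 ligand- and BAFF-presenting fibroblast feeder line (the iGB culture), received IL-4 and then IL-21, and were sorted on day 8. They came from *Xbp1* fl/fl mice (control PBs), from mice that carried *Cd23*-Cre besides *Xbp1* fl/fl (Xbp1-deficient PBs) and from mice of the genotype *Bhlha15* CreER/CreER (Mist1-deficient PBs). PCs were sorted from the spleen on day 7 after immunization with NP-KLH, from mice with *Cd23*-Cre and *Bhlha15* fl/fl (Mist1-deficient PCs) and from control mice (control PCs) that the labels call wildtype and the study lists as *Bhlha15* fl/fl. The Mist1 peaks were mapped on day 4 of LPS stimulation in PBs of *Bhlha15* fl/fl *R26* BirA/BirA mice, in which the Mist1 protein is biotinylated. *Bhlha15* encodes the transcription factor Mist1. *Cd23*-Cre acts in maturing B cells, so that the floxed genes are lost before PBs or PCs form. In the CreER allele, CreER sits in the *Bhlha15* gene, and no *Bhlha15* fl/fl or *Bhlha15* +/+ PBs are among the libraries, so that both mutant PB groups are read against the same control libraries. The ages of the mice and the number of animals behind a library are not given in the sources used here.

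The targeted genes followed the labels. *Bhlha15* was at 176 and 159 TPM in control PBs, at 3.57 and 2.60 TPM in Xbp1-deficient PBs and at 0.210 and 0.551 TPM in Mist1-deficient PBs. It was at 258 and 242 TPM in control PCs and at 14.4 and 16.6 TPM in Mist1-deficient PCs. *Xbp1* transcripts were at 3168 and 3043 TPM in control PBs and at 1981 and 2024 TPM in Xbp1-deficient PBs. TPM per gene do not tell transcripts of a deleted allele from those of an intact one. The plasma cell marker *Sdc1* (CD138) lay between 157 and 166 TPM in the PB libraries and between 395 and 571 TPM in the PC libraries. The libraries also held transcripts of other cells. The 8 fibroblast markers summed to 1199 to 1432 TPM in control, 1742 to 1892 TPM in Xbp1-deficient and 955 to 1582 TPM in Mist1-deficient PBs, and to at most 31.3 TPM in PCs. The 8 neutrophil markers summed to at most 11.6 TPM in control, 133 to 134 TPM in Xbp1-deficient and at most 9.36 TPM in Mist1-deficient PBs, to 461 to 988 TPM in control PCs and to 560 to 845 TPM in Mist1-deficient PCs, and the 8 T cell markers reached at most 13.7 TPM in PBs and 114 TPM in PCs. The 8 macrophage and dendritic cell markers summed to 150 to 156, 52.9 to 54.9 and 169 to 187 TPM in the PB groups, in the same order, and to 205 to 242 TPM in PCs. In these PB groups *Cd68* alone was at means of 130, 17.8 and 153 TPM. *Flt3* was at 17.8, 20.1 and 19.1 TPM and *Lyz2* at 5.54, 15.5 and 6.08 TPM, so that the lower sum is that of *Cd68*. The 3 erythroid markers summed to at most 9.91 TPM. In control PBs, 2 of the 8 neutrophil, 3 of the 8 T cell and 2 of the 8 macrophage markers were listed at 0. The 5 B cell markers summed to 710 to 1229 TPM and the 6 PB and PC markers to 3540 to 7885 TPM over all libraries. Fibroblasts, neutrophils and T cells all make class I molecules, and the part of these cells in the results below was not tested.

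The following sequences show the DNA at the genes whose levels differed most between mutant and control PBs, beside that of *H2-K1* and *Erap1*, which did not pass in these comparisons. The first is the middle of the Mist1-bound interval at the 5′ end of *H2-T24*, at chr17:36156910-36157209 of the mm9 build, printed along the minus strand on which the gene lies. It overlaps no annotated exon, and capitals mark each CANNTG, the E-box that basic helix-loop-helix factors such as Mist1 recognise. The others are RefSeq promoter windows on GRCm38.p6, 250 bases before to 50 after the start of the gene, of *H2-T23* and *Tapbp*, which fell most in Xbp1-deficient PBs, of *H2-K1*, a classical heavy chain, and of *Erap1*. In these windows capitals mark the interferon response element, the κB box, the Y box CCAAT and the Xbp1 core ACGTG on either strand. *H2-T23* is at chr17:36032652-36032951 on the minus strand, *Tapbp* at chr17:33919228-33919527 on the plus strand, *H2-K1* at chr17:34000298-34000597 on the minus strand and *Erap1* at chr13:74639603-74639902 on the plus strand.
H2-T24 Mist1 interval: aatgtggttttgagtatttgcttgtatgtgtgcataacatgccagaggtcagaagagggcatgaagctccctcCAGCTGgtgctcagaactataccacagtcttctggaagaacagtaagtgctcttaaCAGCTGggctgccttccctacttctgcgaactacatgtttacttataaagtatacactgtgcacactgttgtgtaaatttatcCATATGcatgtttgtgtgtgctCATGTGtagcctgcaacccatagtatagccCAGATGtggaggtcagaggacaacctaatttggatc
H2-T23 promoter: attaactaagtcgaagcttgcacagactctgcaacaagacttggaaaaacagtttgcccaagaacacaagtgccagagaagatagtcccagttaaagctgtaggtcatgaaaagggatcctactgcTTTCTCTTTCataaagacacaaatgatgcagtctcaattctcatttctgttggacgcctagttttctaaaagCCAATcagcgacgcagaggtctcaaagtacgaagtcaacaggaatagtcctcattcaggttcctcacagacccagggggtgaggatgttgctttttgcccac
Tapbp promoter: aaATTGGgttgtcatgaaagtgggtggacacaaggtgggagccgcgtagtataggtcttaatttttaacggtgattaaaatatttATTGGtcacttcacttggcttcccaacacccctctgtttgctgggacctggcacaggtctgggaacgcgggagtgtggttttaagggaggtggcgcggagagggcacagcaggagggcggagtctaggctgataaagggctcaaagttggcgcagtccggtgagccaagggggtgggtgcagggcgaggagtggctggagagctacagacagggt
H2-K1 promoter: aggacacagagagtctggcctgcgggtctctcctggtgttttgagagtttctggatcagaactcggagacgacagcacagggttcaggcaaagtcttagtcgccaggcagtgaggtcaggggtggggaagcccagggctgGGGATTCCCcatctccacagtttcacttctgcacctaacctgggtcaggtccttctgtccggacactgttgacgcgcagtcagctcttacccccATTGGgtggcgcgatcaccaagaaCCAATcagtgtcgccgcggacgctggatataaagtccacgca
Erap1 promoter: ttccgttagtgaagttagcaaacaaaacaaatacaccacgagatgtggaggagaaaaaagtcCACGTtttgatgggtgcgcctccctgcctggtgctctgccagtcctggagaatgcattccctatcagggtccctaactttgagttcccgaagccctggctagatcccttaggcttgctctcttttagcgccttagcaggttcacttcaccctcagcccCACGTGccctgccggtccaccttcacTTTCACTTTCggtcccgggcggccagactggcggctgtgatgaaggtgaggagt

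The RefSeq table held a window for 7 of the 10 genes, and *H2-T24*, *Tap2* and *Tapbpl* had none. The interferon response element, read as a pair of GAAA with 2 bases between them, was found in *H2-T23*, *B2m* and *Erap1* and in 3.5% of 27025 promoter windows, and the κB box GGGATTCCC was found in *H2-K1* and *H2-D1* and in 0.4% of all windows. The X2 box TGACG was present in *H2-K1*, *H2-D1*, *B2m* and *Tap1* and in 21.0% of all windows, and the Y box CCAAT was present in 6 of the 7 genes and in 37.9% of all windows. The Xbp1 core ACGTG had 3 matches in *Erap1*, of which a pair lies on opposite strands of one CACGTG, no match in the other 6 windows and at least 1 match in 19.7% of all windows. Whether Xbp1 binds at any of these genes was not tested. The study mapped Xbp1 binding by ChIP-seq, and those peaks were not used here. No window of the 7 held CAGCTG, which occurred in 16.1% of all windows. These matches describe the printed windows and are not binding sites.

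The levels in the control cells set the scale of the class I pathway. In control PBs, *B2m* was at 9807 and 9482 TPM, *H2-K1* at 4048 and 3986 TPM and *H2-D1* at 1065 and 1049 TPM. *Tapbp* was at 624 and 571 TPM, close to *H2-T23*, which encodes the Qa-1 chain read by NK cell receptors, at 571 and 540 TPM. The remaining genes were lower. *Tap2* was at 266 and 254 TPM, *Tap1* at 212 and 212 TPM, *Erap1* at 120 and 120 TPM, *Tapbpl* at 117 and 119 TPM and *H2-T24* at 50.8 and 49.3 TPM. TPM are corrected for gene length, so that these levels can be ordered. *Tapbp* and *H2-T23*, next to each other in this order of levels, had libraries that met at 571 TPM. *B2m*, *H2-K1* and *H2-D1* were the highest of the 10 genes in every group, in this order.

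**Figure D1:**
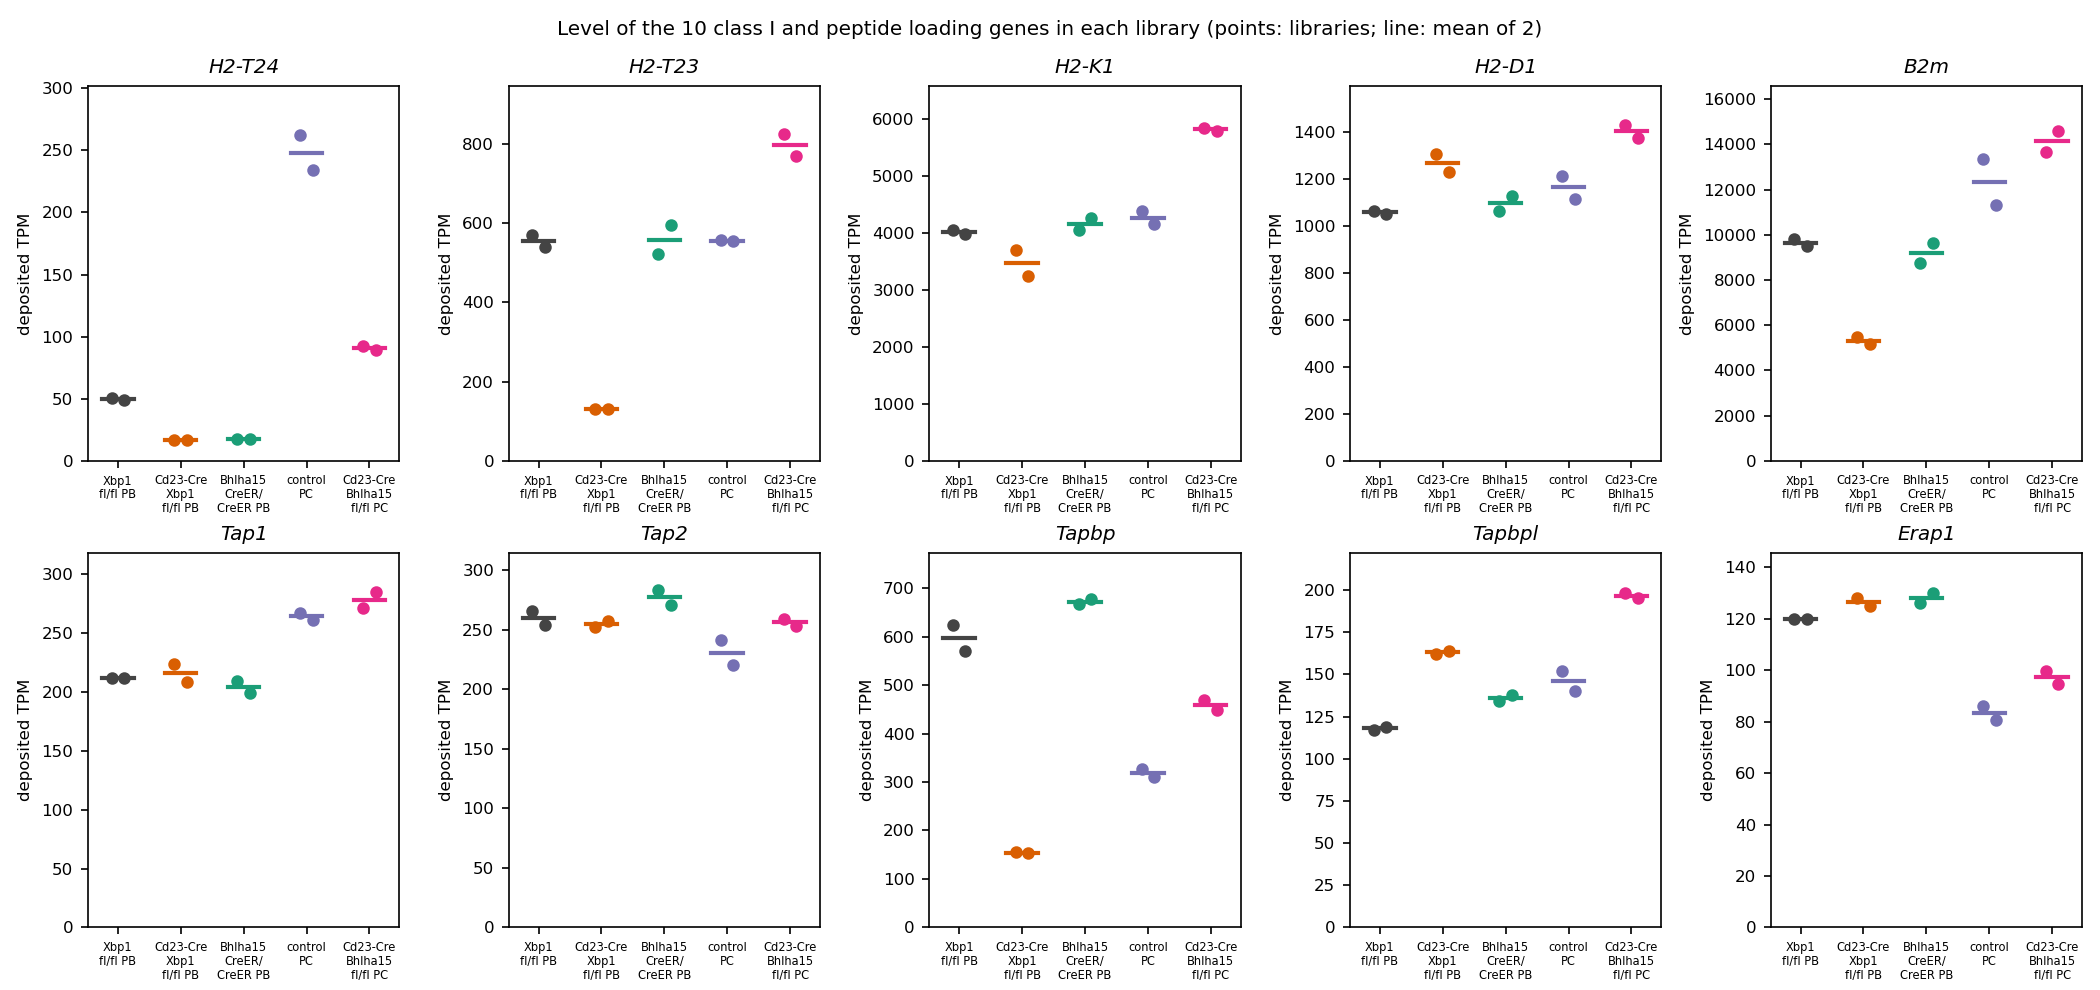
Deposited TPM of the 10 genes (y axis of each panel, starting at 0) in the 5 groups, with a point for each library and a line at the mean of 2 libraries. *H2-T24* is low in both mutant PB groups and highest in control PCs at 262 and 234 TPM, whereas *H2-T23* and *Tapbp* have their lowest levels in Xbp1-deficient PBs.

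Loss of Xbp1 in PBs left the class I genes at unequal levels. Transcripts of *H2-T23* and *Tapbp* fell more than 4-fold and those of *B2m* about 2-fold, whereas the classical heavy chains and the TAP subunits did not pass the test and *Tapbpl* was slightly higher. *H2-T23* was at 130 and 130 TPM in Xbp1-deficient PBs, below both control libraries, and differed by a log2 fold change of -2.30 ± 0.12 (SE, n = 2 libraries per group, adjusted p = 4.29e-06 by limma), a 4.92-fold lower level. *Tapbp* was at 155 and 153 TPM, which gives a log2 fold change of -2.16 ± 0.10 (adjusted p = 2.65e-06 by limma) or a 4.46-fold lower level. *B2m* was at 5468 and 5171 TPM and fell by 1.07 ± 0.19 on the log2 scale (adjusted p = 0.00339 by limma). None of these 3 genes had mutant and control libraries that overlapped. In bulk samples, fewer expressing cells and less RNA per cell cannot be told apart. The sums of fibroblast and neutrophil markers were also higher in these mutant libraries on the TPM as deposited. After scaling between libraries, 1 of the 8 fibroblast markers passed as higher and 1 as lower, and all 6 tested neutrophil markers passed as higher. Their part in the difference was not tested.

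*Tapbpl*, the other peptide editor, was at 162 and 164 TPM against 117 and 119 TPM in the controls. Its log2 fold change was 0.26 ± 0.08 (adjusted p = 0.0488 by limma), and it did not pass when any one of the 4 compared libraries was left out. Of the 9 genes, 4 thus passed, beside 28.3% of all 12125 tested genes in either direction. The lower genes were 3, beside 18.0% of all genes, and *Tapbpl* alone was higher, beside 1250 of all genes. A 3-fold call, which also asks for a fold above 3 and a mean above 5 TPM in the higher group, was met by *H2-T23* and *Tapbp*, beside 1.63% of all genes that were lower by this call. The study had picked both genes from these same libraries with thresholds of this kind. This call, and the counts that include both genes, are therefore a description and not independent support. The median log2 fold change of the 9 genes was -0.24, and that of all genes was 0.00. The values were scaled by the median of ratios, and on the TPM as deposited the median of all genes was 0.21, which turned the split of all calls from 2186 lower and 1250 higher to 1357 lower and 3423 higher. The falls of *H2-T23* and *Tapbp* passed under all 16 alternatives, with log2 fold changes of -2.38 to -2.09 and -2.26 to -1.95, and *B2m* passed in 14 of 16. *B2m* did not pass without control PB replicate 1 or without Xbp1-deficient PB replicate 2, its highest adjusted p being 0.0589 by limma, and 2 genes were then lower. Without either Mist1-deficient PB library, which share the model, 5 genes were lower, *H2-K1* and *Tap2* in addition.

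The other 5 genes did not pass. *H2-K1* was at 3694 and 3246 TPM in the mutant PBs, below both control libraries, with a log2 fold change of -0.42 ± 0.15 (adjusted p = 0.0721 by limma), and it passed as lower in 7 of 16 alternatives. *H2-D1* was at 1304 and 1228 TPM, with 0.05 ± 0.11 (adjusted p = 0.778 by limma). *Tap1* was at 224 and 208 TPM and *Tap2* at 252 and 257 TPM, with log2 fold changes of -0.18 ± 0.08 and -0.24 ± 0.08. *Erap1* was at 128 and 125 TPM, with -0.13 ± 0.08. The signs of *Tap1* and *Erap1* rest on the scaling, since their log2 fold changes ranged from -0.24 to 0.03 and from -0.17 to 0.08 over the alternatives. *H2-D1* passed as higher on the TPM as deposited and with quantile normalization.

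Loss of Mist1 in PBs left the 9 genes without a call. None was lower and none was higher in Mist1-deficient PBs by limma, beside 0.272% of all genes that were lower and 0.0495% that were higher, and *Tapbpl* alone had an unadjusted p under 0.05 (0.0159, log2 fold change 0.25 ± 0.08). *H2-T23* was at 521 and 594 TPM, on both sides of the control libraries, and *B2m* at 8739 and 9634 TPM, with the higher library between the controls. *Tapbp* was at 667 and 677 TPM, above both control libraries, with a log2 fold change of 0.21 ± 0.10 (adjusted p = 0.506 by limma). *H2-K1* was at 4048 and 4259 TPM, *H2-D1* at 1064 and 1129 TPM, *Tap1* at 209 and 199 TPM, *Tap2* at 283 and 271 TPM, *Tapbpl* at 134 and 138 TPM and *Erap1* at 126 and 130 TPM. The fit makes few calls in this comparison at all, 33 lower and 6 higher genes, and no alternative gave a call for any of the 9 genes.

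*H2-T24* was low in both mutant PB groups, which is the pattern that chose it. It was at 16.9 and 17.1 TPM in Xbp1-deficient and at 17.9 and 17.4 TPM in Mist1-deficient PBs, against 50.8 and 49.3 TPM in the controls. The log2 fold changes were -1.76 ± 0.09 and -1.46 ± 0.09, and they share the control libraries. All 4 mutant libraries lay within 16.9 to 17.9 TPM. The direct difference of both mutant groups was a log2 fold change of -0.30 ± 0.09 after scaling, which came to between -0.36 and -0.05 over the alternatives.

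The direct comparison of both mutant PB groups tested which genes differed between loss of Xbp1 and loss of Mist1. In Xbp1-deficient PBs, 6 of the 9 genes were lower than in Mist1-deficient PBs, beside 17.8% of all genes, and none was higher by limma at either the adjusted or the unadjusted threshold, beside 9.34% of all genes. *Tapbp* differed by a log2 fold change of -2.37 ± 0.10 (adjusted p = 1.62e-06 by limma) and *H2-T23* by -2.34 ± 0.12 (adjusted p = 3.88e-06 by limma). *B2m* was lower by a log2 fold change of -1.04 ± 0.19 (adjusted p = 0.00399 by limma) and *Tap2* by -0.37 ± 0.08 (adjusted p = 0.0101 by limma). *H2-K1* (adjusted p = 0.0376 by limma) and *Erap1* (adjusted p = 0.0442 by limma) passed narrowly. On the TPM as deposited, *H2-D1* and *Tapbpl* were higher instead, 4 genes were lower, and the split of all genes turned from 2155 lower and 1132 higher to 1266 lower and 3977 higher. Without Xbp1-deficient PB replicate 1, 3 genes were lower, and without replicate 2 only *H2-T23* and *Tapbp* were.

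In splenic PCs the class I genes that passed the test were higher without Mist1, both heavy chains and peptide editors among them. Of the 9 genes 5 were higher, beside 13.3% of all 12028 genes, and none was lower by limma at either the adjusted or the unadjusted threshold, beside 16.2% of all genes. *H2-T23* was at 557 and 554 TPM in control PCs and at 825 and 769 TPM in Mist1-deficient PCs, a log2 fold change of 0.54 ± 0.06 (adjusted p = 0.00383 by limma). *Tapbp* rose from 327 and 311 TPM to 470 and 449 TPM, a log2 fold change of 0.55 ± 0.07 (adjusted p = 0.00422 by limma). Both mutant libraries were above both control libraries for each of these genes.

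The classical heavy chains rose as well. *H2-K1* was at 4386 and 4153 TPM in control and at 5851 and 5793 TPM in mutant PCs, with a log2 fold change of 0.47 ± 0.09 (adjusted p = 0.0160 by limma). *H2-D1* was at 1214 and 1113 TPM and at 1431 and 1373 TPM, with 0.29 ± 0.08 (adjusted p = 0.0479 by limma). *Tapbpl* was at 152 and 140 TPM and at 198 and 195 TPM, with 0.45 ± 0.07 (adjusted p = 0.00952 by limma). The rises were between 1.22-fold and 1.46-fold.

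*B2m*, at 13368 and 11308 TPM in control and at 13651 and 14599 TPM in mutant PCs, did not pass (log2 fold change 0.22 ± 0.14). *Tap1* was at 267 and 261 TPM and at 271 and 285 TPM, *Tap2* at 241 and 220 TPM and at 259 and 253 TPM, and *Erap1* at 86.1 and 80.5 TPM and at 99.7 and 94.7 TPM. Their log2 fold changes were 0.09 ± 0.06, 0.17 ± 0.08 and 0.24 ± 0.07. The median of the 9 genes was 0.29 and that of all genes 0.01. Under quantile normalization the split of all calls was 1779 lower and 1942 higher, against 1953 lower and 1601 higher. *H2-T23* and *Tapbp* passed under all 13 alternatives. Without Mist1-deficient PC replicate 1 or replicate 2 these were the only 2 genes that passed, and without control PC replicate 1 there were 8.

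*H2-T24* had a lower level in these mutant PCs. It was at 262 and 234 TPM in control and at 92.2 and 89.2 TPM in Mist1-deficient PCs, a log2 fold change of -1.43 ± 0.08, which is the third value that chose the gene. The *Bhlha15* mutant values in PBs and PCs, -1.46 and -1.43, stand beside each other although the alleles, the cells and the controls differ.

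**Figure D2:**
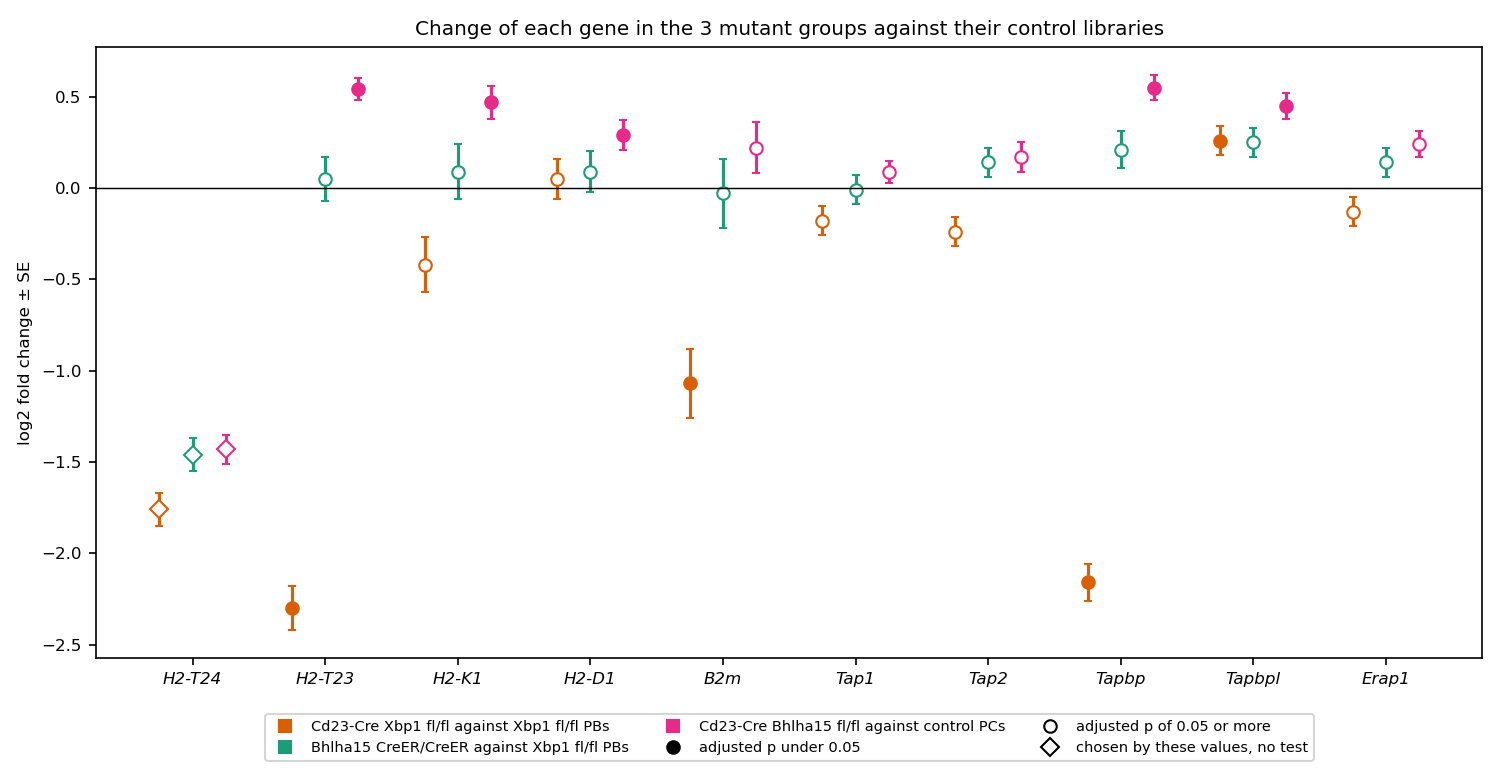
Log2 fold change ± SE (y axis) of the 10 genes in the 3 mutant groups against their control libraries. Filled circles mark an adjusted p under 0.05, and the diamonds are *H2-T24*, which was chosen by these values. *H2-T23* and *Tapbp* are at -2.30 and -2.16 in Xbp1-deficient PBs and at 0.54 and 0.55 in Mist1-deficient PCs.

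Whether the *Bhlha15* effects differ between PCs and PBs was tested by an interaction term over all 10 libraries. None of the 9 genes passed by limma, beside 6.11% of all 13230 genes, and 3 genes had an unadjusted p under 0.05. These were *H2-T23* (difference 0.51 ± 0.13, adjusted p = 0.0576 by limma), *Tapbp* (0.35 ± 0.11, adjusted p = 0.101 by limma) and *H2-K1* (0.39 ± 0.16, adjusted p = 0.198 by limma). The difference of *H2-T23* was 0.36 to 0.66 over 18 alternatives and passed in 5 of them, among them the one without Mist1-deficient PB replicate 2. The split of all calls was 552 lower and 257 higher, and 687 lower and 533 higher with quantile normalization. The call in PCs and the missing call in PBs are therefore not shown to differ.

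Control PCs had less *Tapbp* and *Erap1* and more *H2-T24* than control PBs, and the classical chains did not pass the test. *H2-T24* was 4.57-fold higher in PCs, with a log2 fold change of 2.19 ± 0.08. The control libraries compared here are also those that entered its choice, so that this value is a description and carries no test. *Tapbp* was 2.02-fold lower in PCs (-1.02 ± 0.08, adjusted p = 2.67e-06 by limma) and *Erap1* 1.56-fold lower (-0.64 ± 0.07, adjusted p = 3.25e-05 by limma). *Tap2* was lower and *Tap1* higher, at -0.29 ± 0.07 and 0.20 ± 0.06 (adjusted p = 0.00392 and 0.0137 by limma), and *Tapbpl* was higher at 0.19 ± 0.07 (adjusted p = 0.0338 by limma). In all, 3 of the 9 genes were lower, beside 38.4% of all genes, and 2 were higher, beside 37.6%. *H2-T23*, *H2-K1*, *H2-D1* and *B2m* did not pass, with log2 fold changes of -0.11 ± 0.09, -0.03 ± 0.11, 0.02 ± 0.09 and 0.24 ± 0.16. With quantile normalization *H2-K1* was higher by 0.50 (adjusted p = 6.56e-04 by limma). *Tap1* and *Tapbpl* did not pass without control PB replicate 2 or without control PC replicate 1, and *Tapbpl* did not pass without control PB replicate 1 or Xbp1-deficient PB replicate 2 either. Cell source, culture and genotype differ together here and cannot be told apart. On the TPM as deposited the median of all genes was 0.12 here. *Nlrc5* was higher in control PCs at 2.09 ± 0.08 (adjusted p = 5.80e-08 by limma), 11 of 15 interferon-induced genes were higher and 3 lower, and 7 of the 10 ER folding genes were lower and none was higher by limma at either threshold, beside the shares of all genes given above. The neutrophil marker sum rose in the same direction, and its part in these values was not tested.

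Ratios of genes within a library do not depend on the scaling between libraries. The ratio of *Tapbp* to *Tapbpl*, both peptide editors, was 5.35 and 4.79 in control PBs and 4.98 and 4.89 in Mist1-deficient PBs. It was 0.961 and 0.934 in Xbp1-deficient PBs, so that tapasin transcripts no longer exceeded those of TAPBPR. In PCs it was 2.15 and 2.23 in control and 2.37 and 2.30 in mutant cells.

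The ratio of *H2-T23* to *H2-K1* was 0.0353 and 0.0401 in Xbp1-deficient PBs. In the other 8 libraries it lay between 0.127 and 0.141, PBs and PCs alike. *B2m* exceeded the sum of *H2-K1* and *H2-D1* by 1.92 and 1.88 times in control PBs and by 1.09 and 1.16 times in Xbp1-deficient PBs. The remaining groups had 1.71 and 1.79, 2.39 and 2.15, and 1.87 and 2.04 in the order Mist1-deficient PBs, control PCs and mutant PCs.

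The ratio of *Tapbp* to *Tap1* was 2.95 and 2.69 in control PBs, 0.692 and 0.736 in Xbp1-deficient PBs and 3.19 and 3.40 in Mist1-deficient PBs. It was 1.23 and 1.19 in control PCs and 1.73 and 1.57 in mutant PCs. *Tap1* to *Tap2*, whose products form 1 transporter, stayed between 0.734 and 0.889 in all PB libraries and between 1.05 and 1.19 in all PC libraries. *H2-T24* to *H2-K1* was 0.0125 and 0.0124 in control PBs, 0.00408 to 0.00528 in the 4 mutant PB libraries, 0.0597 and 0.0563 in control PCs and 0.0158 and 0.0154 in mutant PCs. This last ratio follows from the values that chose *H2-T24*.

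**Figure D3:**
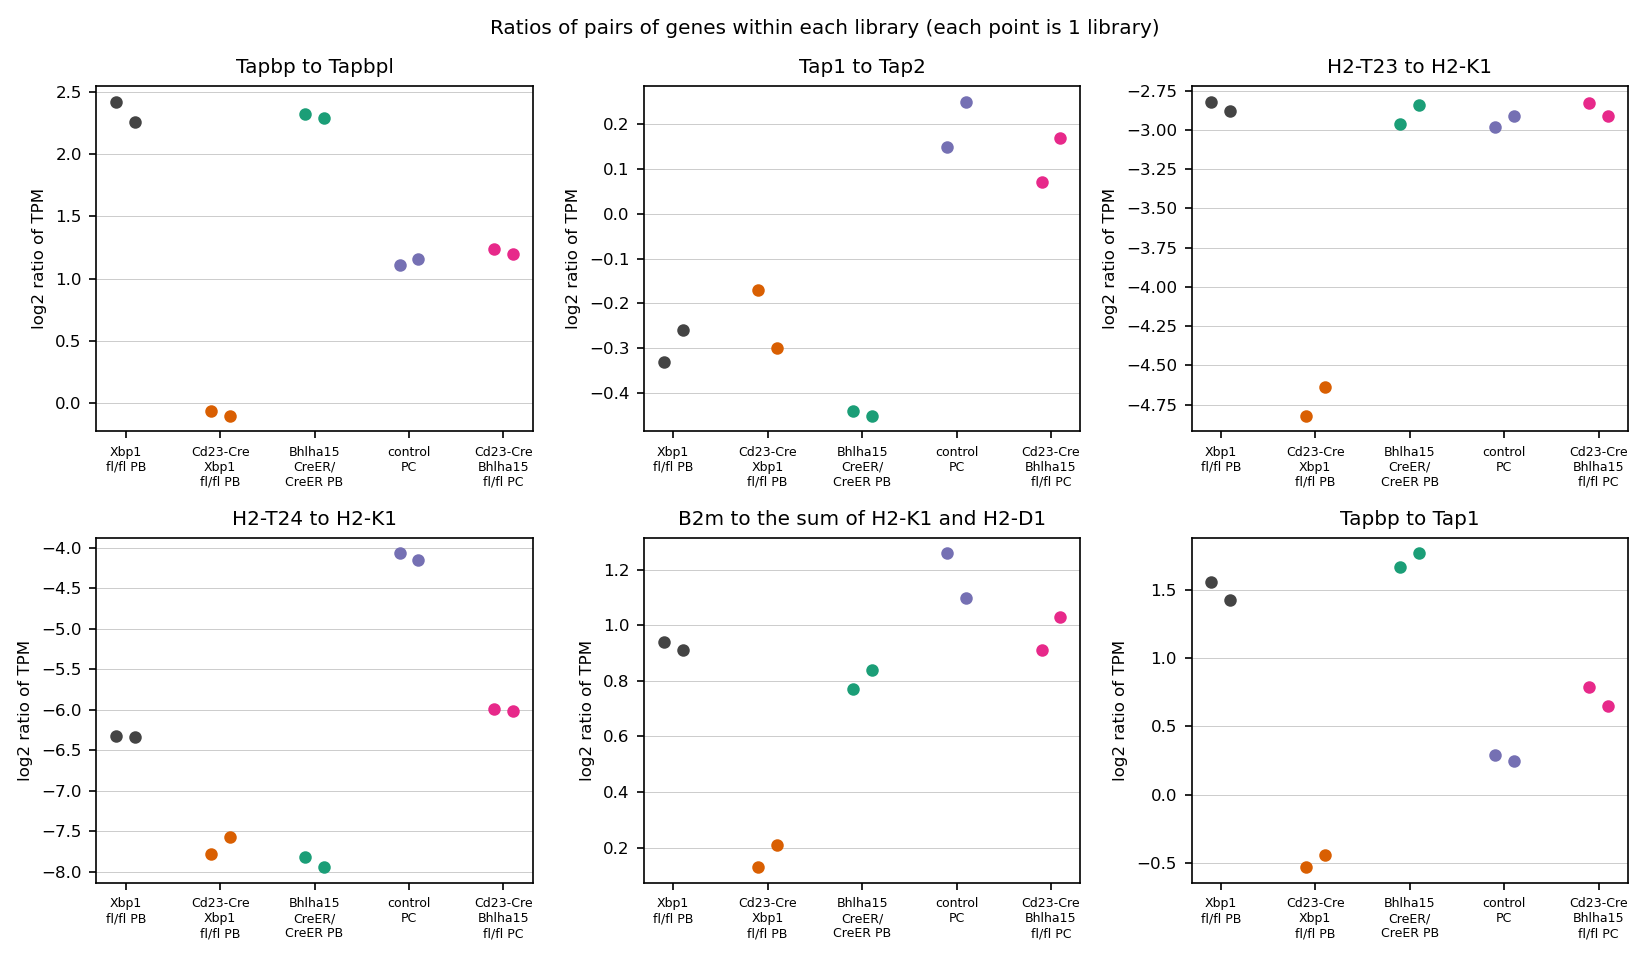
Log2 ratio of the TPM of 2 genes or sums (y axis) within each library, with a point for each of the 10 libraries. *Tapbp* to *Tapbpl* and *H2-T23* to *H2-K1* are lowest in Xbp1-deficient PBs, at -0.06 and -0.10 and at -4.82 and -4.64, *Tapbp* to *Tapbpl* is also lower in PCs than in control PBs, and *Tap1* to *Tap2* separates PBs from PCs.

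Of 10 genes for the folding of class I chains in the ER, 7 were lower in Xbp1-deficient than in control PBs, beside 18.0% of all genes, and none was higher by limma at either the adjusted or the unadjusted threshold. The median log2 fold change was -0.85, against 0.00 over all genes. *Mogs* and *Prkcsh*, whose products take part in trimming glucose from new glycans, changed by -2.54 ± 0.09 (adjusted p = 7.56e-07 by limma) and -1.62 ± 0.10 (adjusted p = 1.04e-05 by limma). *Uggt1*, which puts glucose back on misfolded chains, changed by -2.12 ± 0.08 (adjusted p = 7.92e-07 by limma). *Pdia3*, the ERp57 partner of tapasin, changed by -1.55 ± 0.13, from a mean of 2761 to 1086 TPM (adjusted p = 5.13e-05 by limma). *Calr*, *Canx* and *Ganab* were also lower, whereas *Hspa5*, *Hsp90b1* and *Bcap31* did not pass. These genes overlap the known ER program of Xbp1 and were listed with results of these data known.

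Peptide supply, meaning immunoproteasome subunits, the proteasome activator PA28 and cytosolic or endosomal peptidases, was mixed. Of 13 genes 5 were lower and 1 was higher, beside 28.3% of all genes in either direction and 18.0% lower, with a median of -0.23. *Lnpep* changed by -0.87 ± 0.11 (adjusted p = 7.17e-04 by limma), *Nrd1* by -0.51 ± 0.08 (adjusted p = 0.00200 by limma) and *Psmb9*, which shares exonic sequence with *Tap1* on the opposite strand, by -0.39 ± 0.10 (adjusted p = 0.0209 by limma). *Psme1*, a PA28 subunit, rose by 0.55 ± 0.10 (adjusted p = 0.00396 by limma).

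Of 34 further class I and class I-like chains, 16 passed the filter on low values, and of these 4 were lower, beside 18.0% of all genes, and 1 was higher. Among the chains that did not pass the filter, *H2-Q6*, *H2-Q7*, *H2-Q9*, *H2-T9* and *H2-L* had a mean of 0 TPM in every group. Whether reads shared between similar chains were lost in the counting was not tested. *H2-M3*, which presents formylated peptides, was at a mean of 70.9 TPM against 171 TPM in the controls, a log2 fold change of -1.49 ± 0.13 (adjusted p = 6.98e-05 by limma). *Cd1d1* and *Mr1*, which present lipids and vitamin metabolites, and *Procr* changed by -0.42 ± 0.13, -0.32 ± 0.09 and -0.35 ± 0.10 (adjusted p = 0.0440, 0.0268 and 0.0297 by limma). Their calls are small beside that of *H2-M3*.

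Regulators of class I genes changed in both directions. Of 20 regulators 2 were lower, beside 18.0% of all genes, and 3 were higher, beside 1250 of all 12125 genes, with a median of 0.06, so that both counts are near those of all genes. *Nlrc5*, the class I transactivator, rose by 0.57 ± 0.10 (adjusted p = 0.00440 by limma), from 12.6 and 14.7 TPM to 22.2 and 24.6 TPM. *Irf9*, which carries interferon signals, rose by 0.58 ± 0.10 (adjusted p = 0.00285 by limma), and *Rfxap*, a subunit of the X box complex, fell by 0.56 ± 0.10 on the log2 scale (adjusted p = 0.00362 by limma). Of 14 interferon-induced genes tested, *Irf7* and *Oas1a* were higher, by 1.05 ± 0.09 and 0.68 ± 0.15 (adjusted p = 5.65e-05 and 0.0114 by limma). This count is near that of all genes, 1250 of 12125. None was lower by limma, beside 18.0% of all genes, and 3 were lower at an unadjusted p under 0.05. The neutrophil marker sum was also higher in these libraries, and its part in these values was not tested.

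In Mist1-deficient PBs none of the genes of these 5 lists passed by limma, and 6 had an unadjusted p under 0.05. In Mist1-deficient PCs, 3 of the 10 ER folding genes were higher, beside 13.3% of all genes, with *Prkcsh* at 0.81 ± 0.05 (adjusted p = 0.00133 by limma) and *Bcap31* at 0.52 ± 0.06 (adjusted p = 0.00304 by limma). Of the 13 genes for peptide supply 4 were higher, beside the same 13.3%, and 2 were lower, beside 16.2% of all genes. The higher genes included *Psmb8* (0.47 ± 0.06, adjusted p = 0.00392 by limma), *Psme2* (0.41 ± 0.08, adjusted p = 0.0155 by limma) and *Psme1* (0.29 ± 0.06, adjusted p = 0.0194 by limma). The peptidase gene *Thop1* was lower at -1.29 ± 0.15 (adjusted p = 0.00374 by limma), and *Lnpep* was the other lower gene.

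Of the 14 class I-like chains that passed the filter in PCs, 3 were lower, beside 16.2% of all genes, and 1 was higher, beside 13.3%. These counts are near those of all genes. *Mr1* and *Cd1d1* changed by -1.02 ± 0.17 and -0.93 ± 0.09 (adjusted p = 0.0101 and 0.00227 by limma), *H2-T10* by -0.64 ± 0.08 (adjusted p = 0.00500 by limma) and *H2-M3* by 0.40 ± 0.05 (adjusted p = 0.00496 by limma).

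Among the 20 regulators, 6 were higher and 2 lower in Mist1-deficient PCs, beside 13.3% and 16.2% of all genes. *Ifnar2*, a chain of the type I interferon receptor, rose from a mean of 65.5 to 165 TPM, a log2 fold change of 1.35 ± 0.06 (adjusted p = 7.48e-04 by limma), and *Stat2* was lower at -0.67 ± 0.06 (adjusted p = 0.00219 by limma). *Nlrc5* did not pass at 0.16 ± 0.06 (adjusted p = 0.0826 by limma). Of 15 interferon-induced genes tested, with counts near these shares, 1 was higher, *Isg15* at 0.92 ± 0.09 (adjusted p = 0.00255 by limma), and 3 were lower, the most so *Gbp2* at -0.51 ± 0.13 (adjusted p = 0.0350 by limma).

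**Figure D4:**
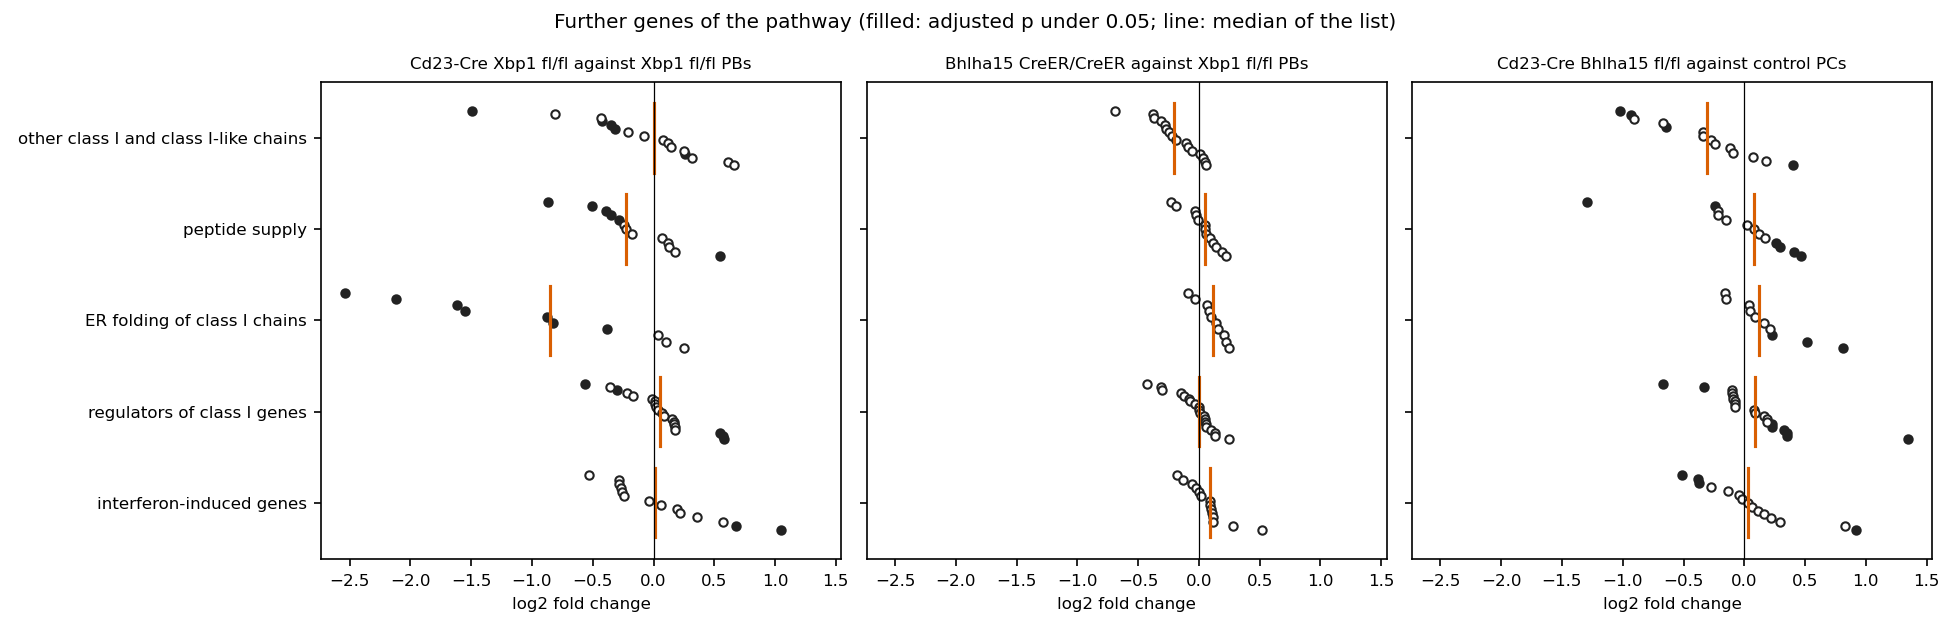
Log2 fold change (x axis, shared by the panels) of the genes of 5 pathway lists in the 3 mutant comparisons, with a point for each tested gene, filled where the adjusted p is under 0.05, and a line at the list median. The ER folding list has its median at -0.85 in Xbp1-deficient PBs, at 0.12 in Mist1-deficient PBs and at 0.13 in Mist1-deficient PCs.

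All but 3 of the 10 genes lie on chromosome 17, and *B2m*, *Tapbpl* and *Erap1* lie on chromosomes 2, 6 and 13. In mm9, *Tapbp* spans 34052844 to 34066235 on the plus strand, *H2-T24* 36142640 to 36157505 and *H2-T23* 36166718 to 36169800, both on the minus strand. The fall of *Tapbp* in Xbp1-deficient PBs was not shared by its neighbours. *Daxx*, which ends 310 bp before it, changed by -0.01 (adjusted p = 0.938 by limma), *Kifc1* by -0.06 and *Cd320* by -0.01. On the other side *Rgl2*, 253 bp away, was higher at 0.45 (adjusted p = 0.0253 by limma), and *H2-Ke2* and *Wdr46* had 0.22 and 0.27. *Zbtb22*, which overlaps an exon of *Tapbp* by 61 bases on the same strand, had 0.04.

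Around *H2-T24* and *H2-T23*, *H2-T22* had a log2 fold change of -0.81 in Xbp1-deficient PBs, -0.28 in Mist1-deficient PBs and -0.12 in Mist1-deficient PCs and passed in none of them (adjusted p = 0.105, 0.811 and 0.503 by limma). *Gnl1* and *Prr3* on the other side had 0.07 and -0.15 in Xbp1-deficient PBs. *H2-T24* and *H2-T23* are neighbours themselves, and *H2-T23* passed as lower in Xbp1-deficient PBs and as higher in Mist1-deficient PCs. *Gm6034* and *Gm11127* did not pass the filter on low values, and *Gm20508* and *Gm17579* were not among the genes listed in all RNA-seq libraries.

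Mist1 peaks were present at most of these genes. A region with peaks in both samples lay within 1 kb of a transcription start site (TSS) of 9 of the 10 genes, and *H2-T23* was the exception, with its nearest common region 8542 bp downstream of its start. Such regions are frequent: 35.8% of 22367 protein-coding genes had one, and 64.6% of the 10500 that reached 1 TPM in both control PB libraries. Regions of this kind also lay at *H2-K1*, *Tap1* and the other genes that made no call in Mist1-deficient PBs. The count was 9 also within 2.5 kb and when both peaks had to share at least 50% of their length. *H2-T24* had the widest common region over a gene start after *B2m*, 2642 bp, from -748 to 1893 bp relative to its start, where both samples shared 2328 bp.

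**Figure D5:**
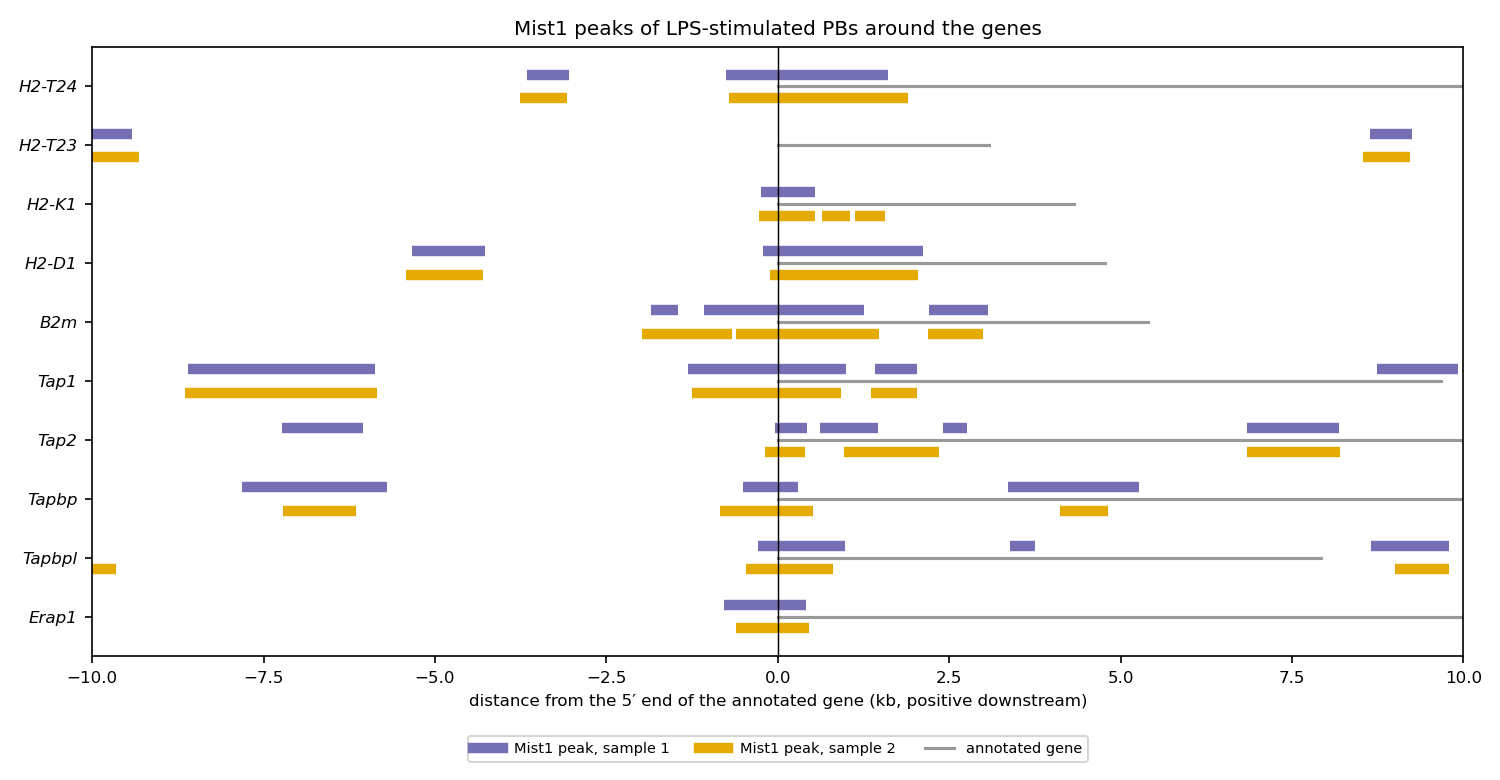
Mist1 peaks of both samples (colours) within 10 kb of the 5′ end of each gene (x axis, kb, positive downstream), with a grey line for the annotated gene up to 10 kb. Peaks of both samples cover the start of 9 genes, and *H2-T23* has none within 8 kb.

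The printed interval at *H2-T24* is the middle 300 bp of the shared 2328 bp. It held 5 E-boxes, of which 2 were CAGCTG. Of 25635 such windows over all common regions, 8.8% held at least 5 CANNTG and 8.4% at least 2 CAGCTG, and 89.1% held at least 1 CANNTG. The windows at the starts of the other genes held 0 to 3 E-boxes, and CAGCTG occurred among them only at *Tapbpl*, once. The peak files give no summit, so that the middle of an interval need not be where Mist1 binds, and this window was examined with the values of *H2-T24* known.

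The 5 genes whose levels over the 10 libraries were most like those of *H2-T24* were *Exd2*, *Rgs14*, *Zfp810*, *Gramd1c* and *Mib1*, with Pearson r of 0.990, 0.990, 0.989, 0.988 and 0.986 on log2 scaled TPM among 13229 genes. The libraries fall into groups, so that r describes the order of the groups. None of these genes belongs to the class I pathway. *Rgs14*, a regulator of G protein signalling, was at 31.5 and 35.9 TPM in control PBs, at 20.5 and 21.2 TPM in Xbp1-deficient PBs and at 20.3 and 20.4 TPM in Mist1-deficient PBs. It was at 133 and 120 TPM in control and at 55.0 and 60.3 TPM in mutant PCs. *Mib1*, a ubiquitin ligase for Notch ligands, was at 41.0 and 40.7, 20.9 and 20.3, and 20.1 and 15.7 TPM in the same PB groups and at 99.2 and 99.8 TPM and 50.3 and 44.2 TPM in PCs. The log2 fold changes of the 5 genes ranged from -1.19 to -0.66 in Xbp1-deficient PBs, from -1.16 to -0.38 in Mist1-deficient PBs and from -1.12 to -0.59 in Mist1-deficient PCs, each smaller than that of *H2-T24*.

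Counting limits some of these values. *H2-D1* carries a suffix in the files that reads as a mark of overlap with another gene, although no exon of another gene overlaps it in the annotation used here. Exons of *H2-T23*, *Tap1* and *Tap2* overlap genes on the opposite strand, and whether reads were counted by strand is not given in the sources used here. No alignment of a class I heavy chain transcript among these genes with a protein-coding transcript of another gene reached 200 bp at 95% identity over its length. Shorter stretches, and stretches within longer alignments of lower identity, were not examined.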

How the data were processed

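The TPM were made by the authors: reads were trimmed with cutadapt, aligned to mm9 with STAR 2.4.2 and counted per gene with featureCounts 1.5, and each library was scaled to a fixed sum without immunoglobulin and T cell receptor genes. TPM keep no depth, which leaves the depth of the libraries unknown and allows no counting error. The libraries held 11514 to 12024 genes at 1 TPM or more. The authors called the deposited Mist1 peaks per sample with MACS after alignment to mm9 with Bowtie 1.0.0, and the peak files hold positions only. Tool names and versions follow the submitters' processing notes and the study's methods.

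The 10 genes and all lists were chosen with earlier results of these data known, and *Tapbp*, *H2-T23* and *H2-T24* were also picked by the study from these libraries. TPM were divided by median-of-ratios factors, and log2(TPM + 0.1) was fitted for genes that reached 1 TPM in 2 or more libraries with limma 3.58.1 (R 4.3.3, moderated test with trend, two-sided, Benjamini-Hochberg adjustment over all genes tested). Fold changes are on this scale, which understates changes of low genes. The PB comparisons share a model of the 6 PB libraries, the PC comparison used the 4 PC libraries, and the comparison of PCs with PBs and the interaction used all 10. Calls have an adjusted p under 0.05. With 2 libraries a group, an exact permutation test cannot go below p = 0.333, so none is given, and the p-values measure the spread between these libraries, which may be technical. The labels name no batch or pairing. The code was tested on simulated data.

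All 10 genes are named. Of each further list, up to 4 called genes with the largest log2 fold change are named, 1 gene that the rule would name is not reported here, other genes were named after their values were seen, and the 3 nearest protein-coding genes on each side and the 5 genes most correlated with *H2-T24* follow the same rule. Positions are from GENCODE M1 on mm9. Common regions are merged peaks of both samples that share at least 1 bp. Promoter windows are from RefSeq, with motifs searched on both strands, and transcripts were compared with blastn 2.17.0. The alternatives were other scalings, pseudocounts of 1 and 0.01, other filters, variance models and libraries in the model, and leaving out each library.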

Additional observations from a re-analysis of the deposited data

How the results depend on the processing

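The falls of *H2-T23* and *Tapbp* in Xbp1-deficient PBs and their rises in Mist1-deficient PCs kept direction and call under every alternative run. The counts of the 9 genes moved as follows, and the cause was not tested. Higher genes in Xbp1-deficient against control PBs numbered 1, but 2 on the TPM as deposited and 2 with quantile normalization, and 0 without a filter or with eBayes without trend. The 3 lower genes became 5 with only the libraries compared. Against Mist1-deficient PBs, 2 were higher on the TPM as deposited and 2 with quantile normalization, where 3 in place of 6 were lower. Higher genes in Mist1-deficient PCs were 3 without a filter. In control PCs against control PBs, 5 were higher with quantile normalization, and 1 with eBayes without trend or with only the libraries compared. For the difference of the *Bhlha15* effects, 3 passed on the TPM as deposited, 2 with quantile normalization, and 1 each with a filter of 5 TPM and with robust eBayes. *H2-D1* in Xbp1-deficient against Mist1-deficient PBs reversed from -0.04 to 0.21 on the TPM as deposited and to 0.25 with quantile normalization, and *H2-K1* in control PCs against control PBs from -0.03 to 0.50 with quantile normalization.

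With each library left out in turn, the lone library of a group being assumed to vary like the others, Xbp1-deficient PBs had 2 to 5 lower and 0 to 1 higher genes against control PBs and 2 to 6 lower genes against Mist1-deficient PBs. Mist1-deficient PCs had 2 to 8 higher genes, control PCs against control PBs 0 to 2, and the difference of the *Bhlha15* effects 0 to 1. Over all genes, calls in Xbp1-deficient PBs were 1282 to 2509 lower and 540 to 1730 higher, in Mist1-deficient PBs 3 to 39 and 0 to 23, and in Mist1-deficient PCs 816 to 2172 and 294 to 2085. Over the other settings, Mist1-deficient PBs had 11 to 86 lower and 6 to 20 higher genes. No paired analysis was possible because the labels pair no libraries across groups.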
